A study of Mus musculus with 9 samples.

Results

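Retinol, aldehyde and ketone oxidoreductases of the intestinal epithelium are described here through 10 genes, Rbp2, Adh1, Rdh7, Dhrs9, Aldh1a1, Akr1c14, Akr1c19, Akr1c12, Akr1c13 and Akr1b8, out of 54838 genes in the expression files. The genes were chosen by earlier results of these same libraries: the group was selected on a lower level of Akr1c14 after 4-hydroxytamoxifen (4-OHT) and on a higher level of Aldh1a1 with necrostatin-1 (Nec-1) in both the ethanol (EtOH) and the 4-OHT arms. The values of the 10 genes in those contrasts are therefore a description, without a test. Tests are given for 6 lists of other genes of the same pathways, and the lists were drawn up with those results known.

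Vitamin A reaches the small intestine as retinyl esters and carotenoids, and enterocytes turn both into retinol, which is bound, esterified and exported. Alcohol dehydrogenases and short-chain retinol dehydrogenases interconvert retinol and retinal, and aldehyde dehydrogenases of the Aldh1a family oxidise retinal irreversibly to retinoic acid, the ligand of nuclear receptors. Aldo-keto reductases use NADPH to reduce the aldehyde and ketone groups of lipids, steroids, sugars and foreign compounds, and several of them also accept retinal.

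The study asked how loss of the RNA methyltransferase Mettl3 leads to death of intestinal epithelial cells and whether Nec-1, an inhibitor of the kinase RIPK1, alters it. Bulk RNA was sequenced from small intestinal organoids, which are cultures grown from crypts, and the donor mice were of the genotype Vil-CreERT2;Mettl3 fl/fl, labelled C57BL/6, and by the study methods male and 2 to 4 months old. Every group carried the same transgene and the same floxed allele. The study methods give 4-OHT at 500 nM for 2 days to induce Cre, with EtOH as its control over the same time, and exposure to DMSO or Nec-1 lasted 5 days. The dose of Nec-1 is 10 µM in the methods and 5 µM in a figure legend.

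The 7 RNA-seq libraries form 4 groups: EtOH DMSO with 2 libraries, EtOH Nec-1 with 2, 4-OHT DMSO with 2 and 4-OHT Nec-1 with 1. The villin promoter limits the tamoxifen-dependent Cre to epithelial cells, and no group received 4-OHT without Cre or without the floxed allele, so an effect of 4-OHT itself and of the recombination it induces cannot be told apart. Labels do not say that libraries of a group came from separate cultures or animals, so the p-values measure only the spread between these samples, which may be technical. The 2 samples of Atf3 binding were not analysed here.

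Expression is given as fragments scaled to transcript length and to the mapped fragments of the library (FPKM). The FPKM values of a library summed to between 450207 and 498712, and between 20403 genes (4-OHT DMSO 2) and 22410 genes (EtOH DMSO 2) were above 0. Total fragment numbers are not in the files. The step between low values reflects what 1 fragment is worth. Its most common size put the depth of EtOH DMSO 2, EtOH Nec-1 1, EtOH Nec-1 2, 4-OHT DMSO 1, 4-OHT DMSO 2 and 4-OHT Nec-1 at 1.03, 0.853, 0.907, 0.919, 0.435 and 0.931 times that of EtOH DMSO 1, and the next most common size gave 2.07, 1.71, 1.81, 1.84, 0.869 and 0.466. The 2 sizes differed by about 2 times in each of these libraries, so relative depth was not settled, and low values of any of them may be less precise. Across the 12702 genes tested, the Pearson correlation of log2(FPKM + 1) between the libraries of a group was 0.984 in EtOH DMSO, 0.965 in 4-OHT DMSO and 0.989 in EtOH Nec-1, where genes are not independent replicates.

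The targeted gene was read first. Mettl3 was at 2.70 and 2.71 FPKM in EtOH DMSO, 2.41 and 2.47 under EtOH Nec-1, 3.72 and 4.14 in the libraries labelled 4-OHT DMSO and 3.36 in the library labelled 4-OHT Nec-1. All 3 libraries labelled 4-OHT were thus above all 4 EtOH libraries, against the direction that a deletion of the gene would give. In 4-OHT DMSO against EtOH DMSO the log2 fold change was 0.41 (SE 0.10; limma adjusted p = 0.0231), a call lost in 7 settings, namely after centring (0.25), in a fit limited to these 4 libraries, without EtOH DMSO replicate 1 or 2 or EtOH Nec-1 replicate 1 or 2 (0.41 each), and without 4-OHT DMSO replicate 2 (0.35). An FPKM value over the whole gene does not separate deleted from kept exons, so this value neither shows nor refutes recombination. Every direction between EtOH and 4-OHT below rests on the labels.

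Fold changes are given on the log2(FPKM + 1) scale, which understates the change of genes near or under 1 FPKM. Genes reaching 1 FPKM in at least 2 libraries were tested, which 9 of the 10 genes did. The 4 comparisons share libraries with each other, so their values are set side by side and no overlap between them is counted.

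Rbp2 (ENSMUSG00000032454, chr9:98490537-98509771 in GRCm38.p6) encodes the cellular retinol-binding protein of enterocytes, which hands retinol to the esterifying enzyme. It was at 125 and 119 FPKM in EtOH DMSO, 122 and 104 under EtOH Nec-1, 64.7 and 67.0 in the libraries labelled 4-OHT DMSO and 89.4 in the library labelled 4-OHT Nec-1. The 3 libraries labelled 4-OHT lay below the 4 EtOH libraries, and the EtOH groups with and without Nec-1 overlapped. Its log2 fold change in 4-OHT DMSO against EtOH DMSO was -0.88 (SE 0.10, n = 2 and 2).

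Among the enzymes that oxidise retinol, Adh1 (ENSMUSG00000074207, chr3:138277585-138290698), the main cytosolic alcohol dehydrogenase, had the highest level of the 10 genes in EtOH DMSO. It was at 451 and 431 FPKM in EtOH DMSO, 395 and 423 under EtOH Nec-1, 102 and 134 in the libraries labelled 4-OHT DMSO and 229 in the library labelled 4-OHT Nec-1. The libraries labelled 4-OHT DMSO were the lowest, at 26.8% of the EtOH DMSO mean, and the library labelled 4-OHT Nec-1 stood between them and all EtOH libraries, at 51.9%. The log2 fold change in 4-OHT DMSO against EtOH DMSO was -1.90 (SE 0.14), and with Nec-1 it was -0.11 in EtOH organoids and 0.96 in organoids labelled 4-OHT.

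Rdh7 (ENSMUSG00000040134, chr10:127884027-127889247) belongs to the short-chain retinol dehydrogenases. It was at 16.1 and 15.3 FPKM in EtOH DMSO, 9.17 and 9.89 under EtOH Nec-1, 2.90 and 3.58 in the libraries labelled 4-OHT DMSO and 3.50 in the library labelled 4-OHT Nec-1. The EtOH Nec-1 libraries were below the EtOH DMSO libraries, and the library labelled 4-OHT Nec-1 lay within the range of the 2 libraries labelled 4-OHT DMSO. Rdh7 was thus unlike the Akr1c genes and Aldh1a1, whose values in the library labelled 4-OHT Nec-1 lay above both libraries labelled 4-OHT DMSO. Its log2 fold changes were -1.98 (SE 0.11) in 4-OHT DMSO against EtOH DMSO and -0.67 (SE 0.11) in EtOH Nec-1 against EtOH DMSO.

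Dhrs9 (ENSMUSG00000027068, chr2:69380462-69403086), another short-chain dehydrogenase that oxidises retinol, was the member that did not pass the filter. It was at 0.0938 and 0.125 FPKM in EtOH DMSO, 0.137 and 0.161 under EtOH Nec-1, 0.689 and 0.379 in the libraries labelled 4-OHT DMSO and 0.308 in the library labelled 4-OHT Nec-1. All libraries were below 1 FPKM, the higher values were in the libraries labelled 4-OHT, and no fold change was fitted.

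Aldh1a1 (ENSMUSG00000053279, chr19:20492583-20643463), a cytosolic retinal dehydrogenase that makes retinoic acid, is 1 of the 2 genes on which the group was selected. It was at 62.0 and 56.9 FPKM in EtOH DMSO, 130 and 127 under EtOH Nec-1, 10.3 and 11.6 in the libraries labelled 4-OHT DMSO and 53.1 in the library labelled 4-OHT Nec-1. Both Nec-1 groups were above their DMSO groups without overlap, and the library labelled 4-OHT Nec-1 came to 89.2% of the EtOH DMSO mean, just below both EtOH DMSO libraries. Log2 fold changes were -2.34 (SE 0.09) in 4-OHT DMSO against EtOH DMSO and 1.10 (SE 0.09) in EtOH Nec-1 against EtOH DMSO. The library labelled 4-OHT Nec-1 was a mean of 2.18 log2 units above the 2 libraries labelled 4-OHT DMSO, with no replicate check.

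Aldh1a7, the neighbour of Aldh1a1 on chromosome 19 and a close copy of it, was at 73.1 and 62.1 FPKM in EtOH DMSO, 111 and 108 under EtOH Nec-1, 8.02 and 8.94 in the libraries labelled 4-OHT DMSO and 41.8 in the library labelled 4-OHT Nec-1. The order of the groups was that of Aldh1a1. Fragments from nearly identical exons may have been shared between the copies in the authors' quantification, so the separate values of Aldh1a1 and Aldh1a7 are uncertain.

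**Figure D1:**
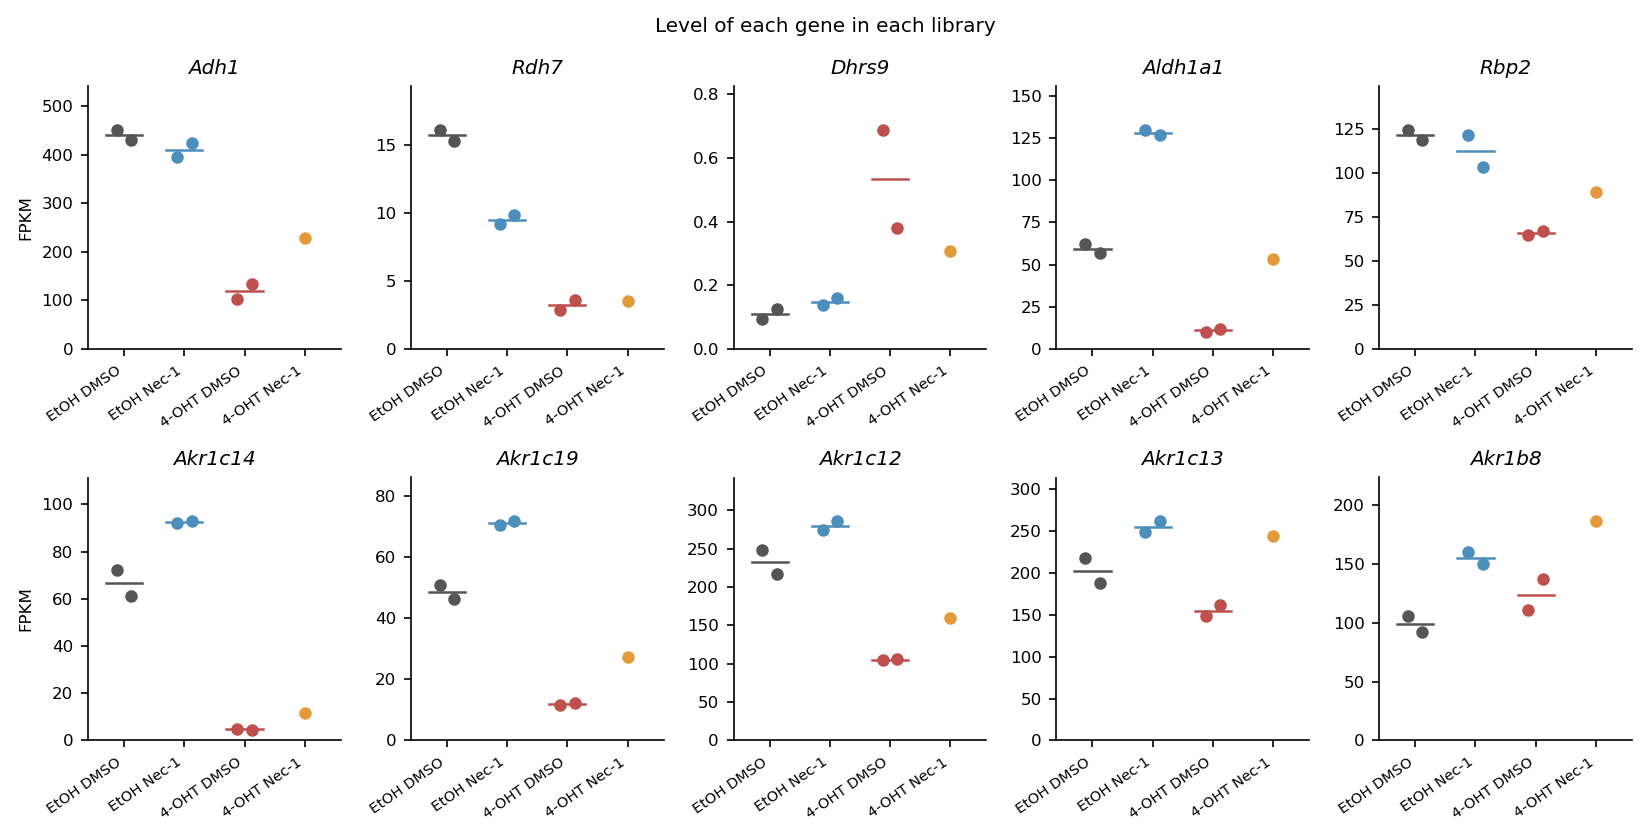
FPKM (y axis, linear from 0, with its own scale in each panel) of the 10 genes in each of the 7 libraries, where points are libraries and horizontal lines are means of the groups with 2 libraries. Points of the 4-OHT DMSO group lie below both EtOH groups in 8 panels, while in the Akr1b8 panel they lie above the EtOH DMSO points and the Dhrs9 panel stays under 1 FPKM.

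Of the aldo-keto reductases, 4 lie in 1 stretch of chromosome 13, in the order Akr1c14, Akr1c13, Akr1c19 and Akr1c12. Enzymes of the Akr1c family act as hydroxysteroid dehydrogenases and reduce ketones and aldehydes. Among the 4 Akr1c genes, the lowest values with the 4-OHT label were those of Akr1c14 (ENSMUSG00000033715, chr13:4048991-4090560), a 3-alpha-hydroxysteroid dehydrogenase and the other gene on which the group was selected. Akr1c14 was at 72.3 and 61.1 FPKM in EtOH DMSO, 92.2 and 92.8 under EtOH Nec-1, 4.89 and 4.58 in the libraries labelled 4-OHT DMSO and 11.7 in the library labelled 4-OHT Nec-1. The groups did not overlap, and the libraries labelled 4-OHT DMSO and 4-OHT Nec-1 were at 7.10% and 17.5% of the EtOH DMSO mean. Log2 fold changes were -3.56 (SE 0.10) in 4-OHT DMSO against EtOH DMSO and 0.47 (SE 0.10) in EtOH Nec-1 against EtOH DMSO.

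Akr1c19 (ENSMUSG00000071551, chr13:4233503-4248361) was at 50.9 and 46.2 FPKM in EtOH DMSO, 70.4 and 71.7 under EtOH Nec-1, 11.7 and 12.1 in the libraries labelled 4-OHT DMSO and 27.5 in the library labelled 4-OHT Nec-1. Its groups had the same order as those of Akr1c14 and did not overlap. The log2 fold change was -1.94 (SE 0.08) in 4-OHT DMSO against EtOH DMSO. In the library labelled 4-OHT Nec-1, Akr1c19 was 1.12 and 1.17 log2 units above the 2 libraries labelled 4-OHT DMSO, and Akr1c14 was 1.10 and 1.18 above them.

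The remaining pair of this stretch had higher levels and smaller differences. Akr1c12 (ENSMUSG00000021211, chr13:4268172-4279399) was at 248 and 217 FPKM in EtOH DMSO, 275 and 286 under EtOH Nec-1, 105 and 106 in the libraries labelled 4-OHT DMSO and 160 in the library labelled 4-OHT Nec-1. Akr1c13 (ENSMUSG00000021213, chr13:4191168-4205604) was at 218 and 187 FPKM in EtOH DMSO, 249 and 261 under EtOH Nec-1, 148 and 162 in the libraries labelled 4-OHT DMSO and 244 in the library labelled 4-OHT Nec-1. The library labelled 4-OHT Nec-1 lay below all EtOH libraries for Akr1c12, and for Akr1c13 it lay above both EtOH DMSO libraries and just below both EtOH Nec-1 libraries. Log2 fold changes in 4-OHT DMSO against EtOH DMSO were -1.13 (SE 0.09) for Akr1c12 and -0.38 (SE 0.11) for Akr1c13.

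Because Akr1c12 and Akr1c13 are near-identical copies, the division of fragments between them is uncertain, and their sum is the safer value. The sum was 466 and 404 FPKM in EtOH DMSO, 524 and 547 under EtOH Nec-1, 253 and 268 in the libraries labelled 4-OHT DMSO and 403 in the library labelled 4-OHT Nec-1. Akr1c13 made up 46.8% and 46.4% of it in EtOH DMSO, 47.5% and 47.8% under EtOH Nec-1, 58.5% and 60.4% in the libraries labelled 4-OHT DMSO and 60.4% in the library labelled 4-OHT Nec-1. The share was higher in the 3 libraries labelled 4-OHT than in the 4 EtOH libraries, and it differed by under 2 percentage points within each group.

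The similarity of this pair extends upstream of the genes, so both upstream stretches are shown as 250 bases before the start in the RefSeq promoter table of GRCm38.p6. In capitals are the 15 bases of each stretch without an identical partner in their global alignment, which held 235 identical positions, 11 mismatches and 8 gap positions, an identity of 92.5%. The first lies at chr13:4190937-4191186 on the plus strand, with its last 19 bases inside the annotated gene, and the second at chr13:4279400-4279649 on the minus strand.
Akr1c13: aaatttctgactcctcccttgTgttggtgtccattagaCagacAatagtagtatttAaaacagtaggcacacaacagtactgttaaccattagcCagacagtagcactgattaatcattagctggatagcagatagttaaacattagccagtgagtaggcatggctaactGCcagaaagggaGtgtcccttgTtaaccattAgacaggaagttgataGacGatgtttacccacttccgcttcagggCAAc
Akr1c12: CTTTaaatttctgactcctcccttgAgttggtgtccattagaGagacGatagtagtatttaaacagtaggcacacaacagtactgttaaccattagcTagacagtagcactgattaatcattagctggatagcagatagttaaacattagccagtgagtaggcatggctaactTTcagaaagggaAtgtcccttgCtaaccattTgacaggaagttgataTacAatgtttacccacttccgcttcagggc
The Akr1c19 stretch aligned with that of Akr1c13 at 59.0% and with that of Akr1c12 at 56.9% identity, and the upstream stretches of Aldh1a1 and Aldh1a7 at 50.9%. Akr1c14, with the lowest values in the libraries labelled 4-OHT DMSO among the 4 Akr1c genes, was at 46.0% identity with Akr1c13, close to the 44.0% between Akr1c19 and Aldh1a1, which belong to different families.

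**Figure D2:**
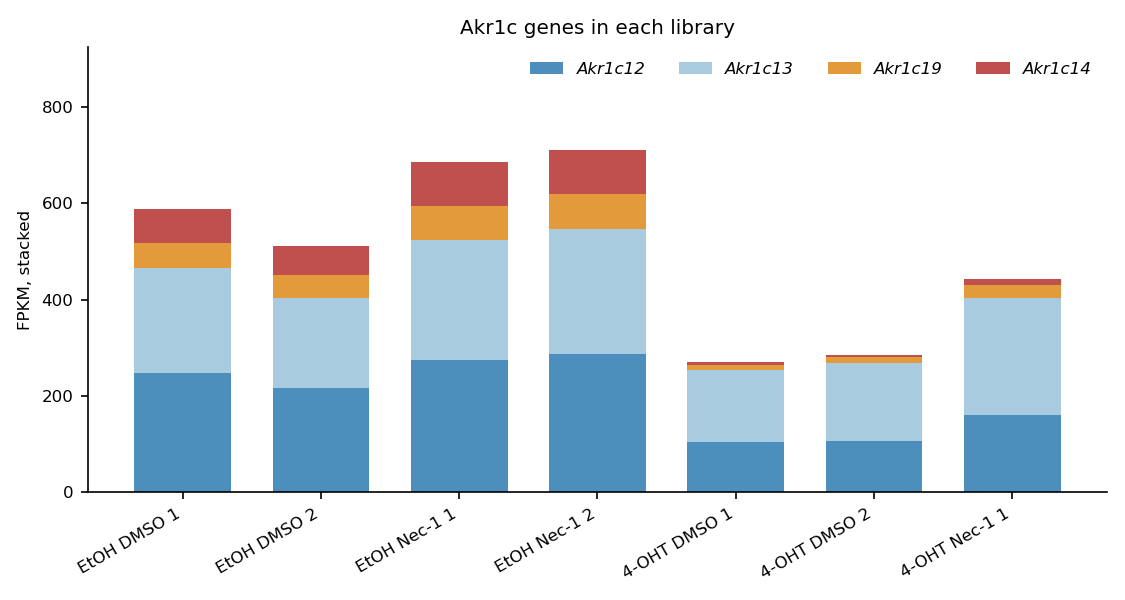
Stacked FPKM (y axis, linear from 0) of Akr1c12, Akr1c13, Akr1c19 and Akr1c14 in each library (x axis). The 4 genes sum to 589 and 511 FPKM in EtOH DMSO and to 269 and 285 in the libraries labelled 4-OHT DMSO, and the Akr1c14 segment is 12.3% and 11.9% of the sum in the former and 1.82% and 1.61% in the latter.

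The library labelled 4-OHT Nec-1 had a sum of 443 FPKM for the 4 Akr1c genes, 2.63% of it from Akr1c14. The EtOH Nec-1 libraries had sums of 686 and 712 FPKM, with 13.4% and 13.0% from Akr1c14. The sum in the library labelled 4-OHT Nec-1 was therefore nearer to the EtOH DMSO sums than the Akr1c14 share was.

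Akr1b8 (ENSMUSG00000029762, chr6:34354146-34368461), an aldose reductase-like enzyme for lipid aldehydes on chromosome 6, differed from the other 8 measured genes in its direction. It was at 106 and 92.3 FPKM in EtOH DMSO, 160 and 150 under EtOH Nec-1, 110 and 137 in the libraries labelled 4-OHT DMSO and 186 in the library labelled 4-OHT Nec-1. Both libraries labelled 4-OHT DMSO were above both EtOH DMSO libraries, with a gap smaller than the spread within either group, and the highest value was in the library labelled 4-OHT Nec-1. The log2 fold changes were 0.31 (SE 0.13) in 4-OHT DMSO against EtOH DMSO and 0.64 (SE 0.13) in EtOH Nec-1 against EtOH DMSO.

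By mean FPKM in EtOH DMSO the order was Adh1 (441 ± 14.5, SD, n = 2), Akr1c12 (232 ± 22.1), Akr1c13 (203 ± 21.4), Rbp2 (122 ± 4.12), Akr1b8 (99.0 ± 9.55), Akr1c14 (66.7 ± 7.97), Aldh1a1 (59.5 ± 3.63), Akr1c19 (48.5 ± 3.35), Rdh7 (15.7 ± 0.584) and Dhrs9 (0.109 ± 0.0220). Among neighbours in this order, the libraries of Akr1c12 and Akr1c13 overlapped, as did those of Akr1c14 and Aldh1a1. In the libraries labelled 4-OHT DMSO the order was led by Akr1c13 at 155 ± 10.05, followed by Akr1b8 at 124 ± 18.9, Adh1 at 118 ± 22.7 and Akr1c12 at 105 ± 1.03, and Akr1c14 was at 4.74 ± 0.218, above only Rdh7 and Dhrs9. There the libraries of Akr1b8 and Adh1 overlapped, as did those of Adh1 and Akr1c12.

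The first comparison, 4-OHT DMSO against EtOH DMSO, asks what differs with induction of Cre. Of the 9 genes measured, 8 had log2 fold changes below 0 and Akr1b8 had one above 0. Since the genes were selected on this contrast, nothing is read from that count. Limma called 24.5% of all 12702 genes tested higher (3117 genes) and 16.7% lower (2120 genes), and after centring every library on its own median 2213 genes were called higher and 3187 lower. The median over all genes was 0.08 before centring and -0.08 after it, and values of single genes below are without centring unless stated. The 8 lower values of the selected genes, from -0.38 to -3.56, stayed below 0 in each setting tried, and Akr1b8 stayed above 0. Settings that change only the trend, the filter, the replicate block or libraries outside the compared groups leave these fold changes as they are. Only centring, the pseudocount and leaving out a library of a compared group could move them.

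The lists of related genes hold 99 symbols, 97 of which were matched and 57 tested, without the 10 selected genes. Limma called 11 of the 57 higher (19.3%) and 29 lower (50.9%), against 24.5% and 16.7% of all genes tested, and 17 were not called. Their median log2 fold change was -0.42, against 0.08 over all genes tested, and -0.58 against -0.08 after centring. Centring gave 9 list genes called higher and 34 lower, against 2213 and 3187 of all genes tested. With 1 library left out at a time, 10 to 12 list genes were called higher and 22 to 30 lower, the fewest lower without EtOH DMSO replicate 1 and the most without 4-OHT DMSO replicate 2. Rdh5 and Lrat, both called lower, reached 1 FPKM only in EtOH libraries, and Bco1, called higher, only in libraries labelled 4-OHT, so these 3 passed the filter through the group in which they were high. Where 1 FPKM was required in every library, 10 of 49 list genes were called higher and 27 lower. The 29 list genes called lower above include Aldh1a7, whose fragments may be shared with Aldh1a1, a gene of the selection. In each gene named below with a change, both libraries labelled 4-OHT DMSO lay outside the range of the 2 EtOH DMSO libraries on the side of the call.

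Among other aldo-keto reductases, 1 of 6 tested genes rose (16.7%) and 4 fell (66.7%), with a median log2 fold change of -0.52. Of all genes tested, 24.5% were called higher and 16.7% lower. Akr1b7, an aldose reductase-like gene near Akr1b8 on chromosome 6, fell from 2.61 and 1.90 FPKM to 1.05 and 0.712 (log2 fold change -0.79, SE 0.16; limma adjusted p = 0.0127), a call lost without EtOH DMSO replicate 1 (log2 fold change -0.63). Akr7a5, a reductase of toxic aldehydes, fell from 64.6 and 56.5 FPKM to 37.5 and 38.1 (-0.66, SE 0.09; adjusted p = 0.00411), and Akr1e1 fell from 13.1 and 12.6 to 8.02 and 8.09 (-0.61, SE 0.11; adjusted p = 0.0104), a call that was also lost without EtOH DMSO replicate 1 (-0.59). Akr1a1, the aldehyde reductase and the most abundant gene of the list, fell from 226 and 212 to 163 and 162 FPKM (-0.42, SE 0.08; adjusted p = 0.00937). Akr1b3, the aldose reductase that makes sorbitol from glucose, rose from 4.95 and 4.82 FPKM to 7.73 and 7.22 (0.53, SE 0.09; adjusted p = 0.00933). Akr1b7, Akr7a5, Akr1e1 and Akr1a1 thus shared the direction of the Akr1c genes with smaller changes than Akr1c14, while Akr1b3 did not.

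In the aldehyde dehydrogenase list 9 of 13 tested genes fell (69.2%) and 3 rose (23.1%), with a median of -0.66. The shares over all genes tested were 16.7% lower and 24.5% higher. The list covers enzymes of several compartments and substrates, and those that changed are not all enzymes of retinal. Aldh1a7, the copy of Aldh1a1 given above, fell by 2.85 on the log2 scale (SE 0.11) and is counted among the 9. Its fragments may be shared with Aldh1a1, a gene of the selection, so its value may not be separate from the selection and its p is not given. Aldh1l2, a mitochondrial folate enzyme, fell from 4.23 and 5.58 FPKM to 1.28 and 2.13 (-1.13, SE 0.19; adjusted p = 0.00791), and Aldh6a1, of valine breakdown, fell from 6.39 and 6.01 to 2.42 and 2.47 (-1.06, SE 0.09; adjusted p = 0.00106).

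The 3 aldehyde dehydrogenases that rose were Aldh7a1, Aldh3b1 and Aldh1b1. Aldh7a1, of lysine breakdown, rose from 1.81 and 2.09 FPKM to 4.67 and 4.07 (0.86, SE 0.12; limma adjusted p = 0.00396), and Aldh3b1, an enzyme of lipid aldehydes, rose from 3.82 and 3.57 to 6.80 and 6.35 (0.69, SE 0.09; adjusted p = 0.00351). Aldh1b1, a mitochondrial enzyme found in crypt cells, was the most abundant of the list and rose from 281 and 284 FPKM to 364 and 393 (0.42, SE 0.08; adjusted p = 0.0113), a call lost when libraries were centred (0.26). The most abundant aldehyde dehydrogenase of the list thus went the other way from Aldh1a1.

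Alcohol dehydrogenases had 3 tested genes, of which 2 fell (66.7%, against 16.7% of all genes tested) and Adh6a was not called, with a median of -0.70. Adh4, which can oxidise retinol, fell from 20.6 and 21.0 FPKM to 8.34 and 8.75 (-1.19, SE 0.09; limma adjusted p = 0.000745). Adh5, the formaldehyde-clearing enzyme found in most cells, fell from 31.9 and 27.99 to 17.6 and 18.4 (-0.70, SE 0.10; adjusted p = 0.00399). Adh6a, the most abundant of the 3, was at 36.6 and 34.0 FPKM in EtOH DMSO and at 25.3 and 30.4 in the libraries labelled 4-OHT DMSO (-0.33, SE 0.11; adjusted p = 0.0554), and it was called lower after centring (-0.49) and without 4-OHT DMSO replicate 2 (-0.46).

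Of 19 tested retinol dehydrogenases and other short-chain reductases, 9 fell (47.4%), 4 rose (21.1%) and 6 were not called, with a median of -0.33. Over all genes tested 16.7% were called lower and 24.5% higher, so the share that rose was under that of all genes. Dhrs3, which reduces retinal back to retinol, fell from 28.8 and 27.5 FPKM to 4.78 and 4.71 (-2.34, SE 0.08; limma adjusted p = 0.000256). Hsd17b13, a lipid droplet enzyme with retinol dehydrogenase activity, fell from 105 and 101 to 19.2 and 22.4 (-2.26, SE 0.10; adjusted p = 0.000321), and Dcxr, the xylulose reductase, fell from 27.3 and 23.3 to 12.5 and 15.1 (-0.83, SE 0.13; adjusted p = 0.00568). The carbonyl reductase Cbr3, the most abundant of the list, fell from 354 and 294 FPKM to 179 and 232 (-0.66, SE 0.16; adjusted p = 0.0223), a call lost in 5 settings, among them without EtOH DMSO replicate 1 (-0.53) and without EtOH Nec-1 replicate 1 or 2 (-0.66 each).

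Rising short-chain reductases included Rdh10, the enzyme that oxidises retinol to retinal in many embryonic and adult tissues. Rdh10 rose from 7.25 and 9.32 FPKM to 18.6 and 17.3 (1.04, SE 0.13; limma adjusted p = 0.00293). Dhrs13 rose from 3.12 and 3.31 to 14.2 and 12.7 (1.78, SE 0.11; adjusted p = 0.000507), and Rdh14 rose from 15.2 and 12.8 to 23.2 and 28.7 (0.84, SE 0.13; adjusted p = 0.00647). Among the genes for retinol oxidation named here, Rdh10 was thus higher and Adh4 and Hsd17b13 were lower. The share of the list that rose, 21.1%, was under the 24.5% of all genes tested.

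For retinoid uptake, binding, cleavage and esterification, 3 of 12 tested genes were called higher (25.0%, close to the 24.5% over all genes). Another 3 were called lower (25.0%, against 16.7% over all genes) and 6 neither, with a median of -0.33, where the calls include Bco1 and Lrat. This balance did not hold after centring, where Dgat1 (-0.82), Rbp7 (-0.85) and Scarb1 (-0.40) were also called lower and Dgat2 (0.24) was not called. Rbp7 was called lower in 3 settings, centring among them. Bco1 and Bco2 cleave carotenoids, Bco1 centrally to retinal and Bco2 off centre. Bco2 fell from 23.7 and 22.2 FPKM to 3.62 and 4.63 (-2.23, SE 0.12; limma adjusted p = 0.000409). Bco1 was at 0.394 and 0.541 FPKM in EtOH DMSO and at 2.51 and 1.62 in the libraries labelled 4-OHT DMSO (1.05, SE 0.18), and since it had to be high in the latter to be tested, its p is not given. Isx, the homeobox factor that represses Bco1, fell from 67.5 and 63.4 FPKM to 48.3 and 49.1 (-0.42, SE 0.11; adjusted p = 0.0321), a call lost in 5 settings, among them without EtOH DMSO replicate 1 (-0.37), without EtOH DMSO replicate 2 (-0.46), without 4-OHT DMSO replicate 1 (-0.41) and without 4-OHT DMSO replicate 2 (-0.43).

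Lrat, the main retinol esterifying enzyme, was low, at 1.18 and 1.44 FPKM in EtOH DMSO and 0.226 and 0.107 in the libraries labelled 4-OHT DMSO (-0.98, SE 0.14), and its p is left out too, since it reached 1 FPKM only in EtOH libraries. Dgat1, which makes triglyceride and can also esterify retinol, was the most abundant of this list, at 67.5 and 59.9 FPKM in EtOH DMSO and 32.1 and 49.0 in the libraries labelled 4-OHT DMSO, and was not called (-0.67, SE 0.23; limma adjusted p = 0.0665). Dgat1 was called lower after centring (-0.82) and without 4-OHT DMSO replicate 2 (-0.96). Dgat2 rose from 10.9 and 11.7 to 15.1 and 15.4 FPKM (0.40, SE 0.09; adjusted p = 0.0175), a call lost in 3 settings, namely after centring (0.24), without EtOH DMSO replicate 1 (0.36) and without 4-OHT DMSO replicate 2 (0.39). Fabp5, a carrier of fatty acids and retinoic acid, rose from 5.09 and 4.62 to 9.51 and 9.41 FPKM (0.84, SE 0.12; adjusted p = 0.00414).

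Retinoic acid receptors and the enzymes that break retinoic acid down formed the shortest tested set after the alcohol dehydrogenases, with 2 of 4 tested genes falling (50%) and a median of -0.41. Of all genes tested, 16.7% were called lower. The 4 tested genes were all receptors, and no breakdown enzyme passed the filter. Rarg, a retinoic acid receptor, fell from 3.90 and 3.96 FPKM to 2.18 and 2.55 (-0.55, SE 0.10; limma adjusted p = 0.0106). Rxrb, a partner receptor, fell from 9.97 and 10.8 to 6.61 and 7.62 (-0.49, SE 0.12; adjusted p = 0.0226), a call lost in 4 settings, among them without EtOH DMSO replicate 1 (-0.54), without EtOH DMSO replicate 2 (-0.44) and without 4-OHT DMSO replicate 1 (-0.40). Rxra, the most abundant receptor of the list, was at 14.9 and 18.7 FPKM in EtOH DMSO and 12.8 and 13.3 in the libraries labelled 4-OHT DMSO and was not called (-0.33, SE 0.12; adjusted p = 0.0809), but it was called lower after centring (-0.49) and without EtOH DMSO replicate 1 (-0.49).

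**Figure D3:**
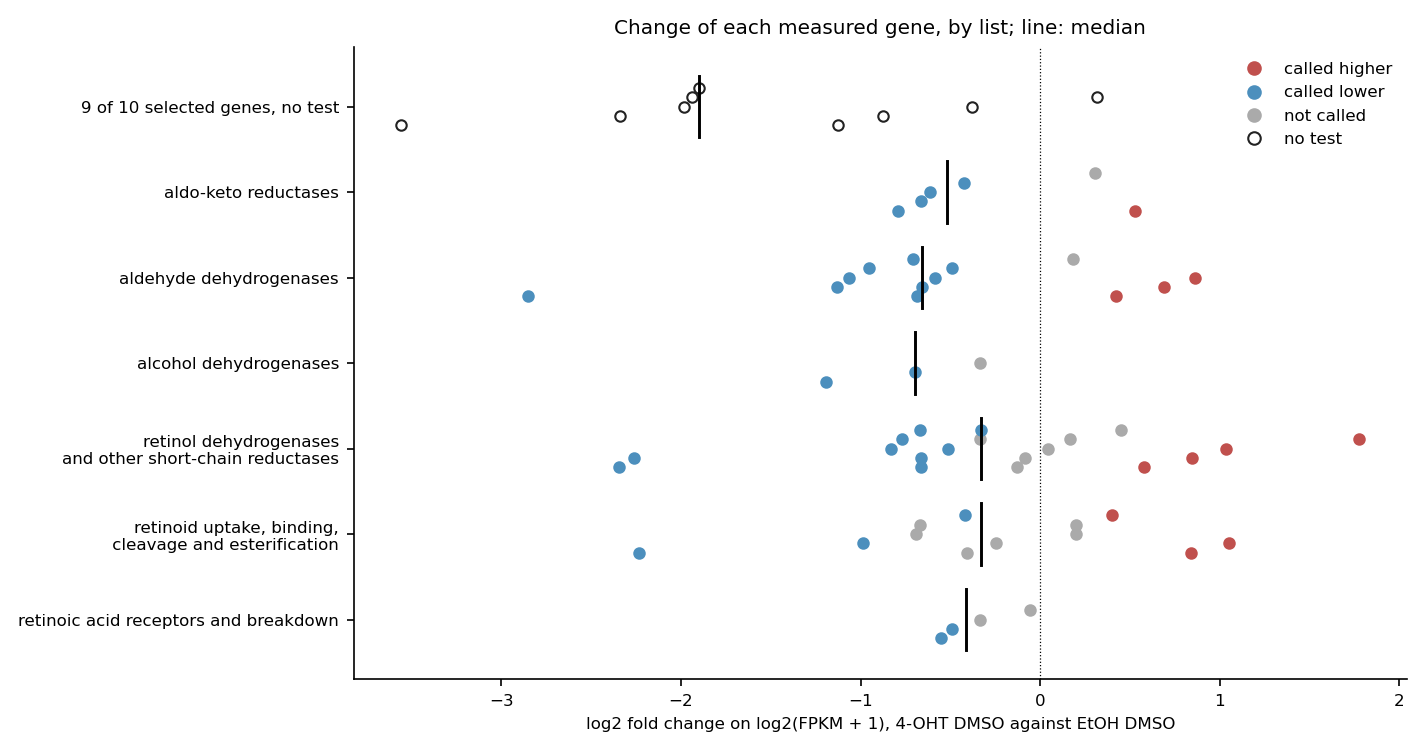
Log2 fold change on log2(FPKM + 1) in 4-OHT DMSO against EtOH DMSO (x axis) for 9 of the 10 selected genes and for the tested genes of the 6 lists (y axis); points are genes, colours give the limma call, and vertical bars are medians. The medians of the lists lie between -0.33 and -0.70, and each list except the alcohol dehydrogenases and the receptors holds genes called higher as well as lower.

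Markers of the cell types of the epithelium moved in the same comparison, in which 24.5% of all genes tested were called higher and 16.7% lower. The 12 enterocyte markers, 11 of them tested, had 3 genes called higher and 5 lower, and their FPKM summed to 1674 and 1613 in EtOH DMSO, 1370 and 1358 under EtOH Nec-1, 1299 and 1376 in the libraries labelled 4-OHT DMSO and 1505 in the library labelled 4-OHT Nec-1, with Fabp1 the most abundant. All 6 Paneth cell markers were called higher, with sums of 8169 and 7399 FPKM in EtOH DMSO, 8874 and 8684 under EtOH Nec-1, 19155 and 19688 in the libraries labelled 4-OHT DMSO and 14695 in the library labelled 4-OHT Nec-1, led by Defa24. Of 6 goblet cell markers 5 were called higher, with Tff3 the most abundant and sums of 1354 and 1258 in EtOH DMSO, 1412 and 1388 under EtOH Nec-1, 1867 and 2067 in the libraries labelled 4-OHT DMSO and 1669 in the library labelled 4-OHT Nec-1. Secretory markers were thus higher in the libraries labelled 4-OHT DMSO, in which the selected genes were mostly lower.

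All 6 enteroendocrine markers were called higher as well, with Gip the most abundant and sums of 357 and 368 FPKM in EtOH DMSO, 359 and 407 under EtOH Nec-1, 800 and 950 in the libraries labelled 4-OHT DMSO and 733 in the library labelled 4-OHT Nec-1. Among 5 stem cell markers, 3 were called lower, of which Lgr5 reached 1 FPKM only in EtOH DMSO and so passed the filter through the group where it was high, with Olfm4 the most abundant and sums of 47.8 and 46.1, 34.8 and 32.6, 29.1 and 21.3, and 14.0 FPKM in the same order of groups. Among 5 tuft cell markers only Avil was tested and called higher, Il25 was listed at 0 in all 7 libraries, and the sums stayed between 3.75 and 5.13 FPKM. Their part in the values of the selected genes was not tested. In bulk RNA, fewer cells of a type and less RNA per cell cannot be told apart. The shares of all genes tested in this comparison were 24.5% called higher and 16.7% lower.

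Of the marker lists for cells outside the epithelium, that of fibroblasts was low throughout. No fibroblast marker reached 1 FPKM in any library, Lum was listed at 0 in all of them, and the highest sum of the 6, of which Col1a1 was the most abundant, was 0.137 FPKM. Among 6 immune cell markers, Ptprc was at most 0.0497 FPKM and Cd3e at most 0.0892, while Cd68, a lysosomal protein not limited to immune cells, was called higher, and the sums ran from 1.48 FPKM in EtOH DMSO to 8.97 in the library labelled 4-OHT Nec-1. Lyz2 of the same list was at 0.634 and 0.237 FPKM in EtOH DMSO, 2.52 and 1.55 under EtOH Nec-1, 0.677 and 0.344 in the libraries labelled 4-OHT DMSO and 2.63 in the library labelled 4-OHT Nec-1, above the DMSO libraries in both arms. The most abundant of 5 hepatocyte markers and the only one called was Cps1, which small intestinal epithelium expresses too, from 209 and 238 FPKM in EtOH DMSO to 57.5 and 50.7 in the libraries labelled 4-OHT DMSO, and Alb and Ttr were at 10.8 and 8.31 and at 10.3 and 9.38 FPKM in EtOH DMSO. The sums of that list were 231 and 257 FPKM in EtOH DMSO, 202 and 198 under EtOH Nec-1, 73.3 and 67.6 in the libraries labelled 4-OHT DMSO and 63.9 in the library labelled 4-OHT Nec-1.

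The second comparison, EtOH Nec-1 against EtOH DMSO, asks what differs with Nec-1 where Cre was not induced. Limma called 0.173% of all tested genes higher (22 genes) and 0.0472% lower (6 genes), counts that ran from 5 to 57 and from 2 to 18 with 1 library left out at a time. Aldh1a1 was selected on this contrast, so the values of the selected genes are a description. Values of Aldh1a1, Akr1b8, Akr1c19, Akr1c14, Akr1c13 and Akr1c12 were above both EtOH DMSO libraries in both EtOH Nec-1 libraries, with log2 fold changes of 1.10, 0.64, 0.54, 0.47, 0.33 and 0.27. Adh1 and Rdh7 were below them in both libraries, at -0.11 and -0.67, and Rbp2 overlapped at -0.11; after centring Adh1 overlapped as well, at -0.0096.

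Of the 57 tested list genes, limma called 0 higher and 0 lower under Nec-1 in EtOH organoids, and at an unadjusted p under 0.05 there were 8 higher and 8 lower (14.0% each), against 371 higher (2.92%) and 1318 lower (10.4%) of all 12702 genes. The 8 higher include Cd36, which reached 1 FPKM only in Nec-1 libraries and so passed the filter through them. Their median log2 fold change was -0.02, against -0.09 over all genes, and 0.08 against 0.0048 after centring. Akr1b7 had the value nearest to a call, going from 2.61 and 1.90 FPKM without to 7.30 and 7.79 FPKM with Nec-1 (log2 fold change 1.40, SE 0.16; limma adjusted p = 0.0603), and it was called in 3 settings, those without 4-OHT DMSO replicate 1, without 4-OHT DMSO replicate 2, or with only the 4 libraries of the comparison. Aldh1a7 was higher in both libraries and not called (0.70, SE 0.11). Its fragments may be shared with Aldh1a1, which was selected on this contrast, so its p is not given. Enterocyte markers had 1 gene called, Apoa4, which fell by 1.62 on the log2 scale (adjusted p = 0.0102), and the other marker lists had none. Lyz2 was not called (log2 fold change 1.08); it reached 1 FPKM only in Nec-1 libraries, so its p is not given.

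The third comparison, 4-OHT Nec-1 against 4-OHT DMSO, has 1 library with Nec-1 and so no replicate check and no p-value. Counted here are genes that averaged 1 FPKM or more over the 3 libraries and differed from each library labelled 4-OHT DMSO by 1 log2 unit or more in the same direction. Of the 9 measured genes, Aldh1a1, Akr1c14 and Akr1c19 were counted as higher and none as lower, against 0.764% of 12036 genes counted as higher (92 genes) and 1.21% as lower (146 genes), or 119 and 115 genes after centring. The counts were 247 and 543 without 4-OHT DMSO replicate 1 and 181 and 244 without replicate 2, where only 1 library has to be exceeded, and with a pseudocount of 0.1 they were 123 and 255. Aldh1a1 was selected on this contrast too, and the count carries no further reading. Mean log2 differences of the others were 0.96 for Adh1, 0.65 for Akr1c13, 0.60 for Akr1c12, 0.59 for Akr1b8, 0.44 for Rbp2 and 0.09 for Rdh7. Without 4-OHT DMSO replicate 1, the Rdh7 difference was -0.03.

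Among list genes 2 of 53 were counted as higher (3.77%, against 0.764% of all genes measured), Aldh1a7 (2.18) and Hsd17b13 (1.15), and none as lower. Fragments of Aldh1a7 may be shared with Aldh1a1, which was selected on this contrast. By the weaker measure of lying outside both libraries labelled 4-OHT DMSO, 34 of the 53 list genes were above and 12 below, or 64.2% and 22.6%, against 24.5% and 50.6% of all genes measured, and after centring these shares were 77.4% and 9.43% of the list genes against 41.3% and 32.4%. The median log2 difference of the list genes was 0.17, against -0.09 over all genes, and 0.28 against 0.03 after centring. Hsd17b13 had values of 19.2 and 22.4 FPKM with the label 4-OHT DMSO and 47.3 with the label 4-OHT Nec-1. Among the cell type markers, Olfm4 (-1.56) and Apoa4 (-1.33) were counted as lower and Lyz2 (1.27) as higher, although Lyz2 met the mean of 1 FPKM only through the library labelled 4-OHT Nec-1. Alpi, Fabp1 and Mmp7 differed by 1.03, 0.85 and -0.68 without being counted. The part of these markers in the values of the selected genes was not tested. With a single Nec-1 library, a property of that library and an effect of Nec-1 cannot be told apart.

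**Figure D4:**
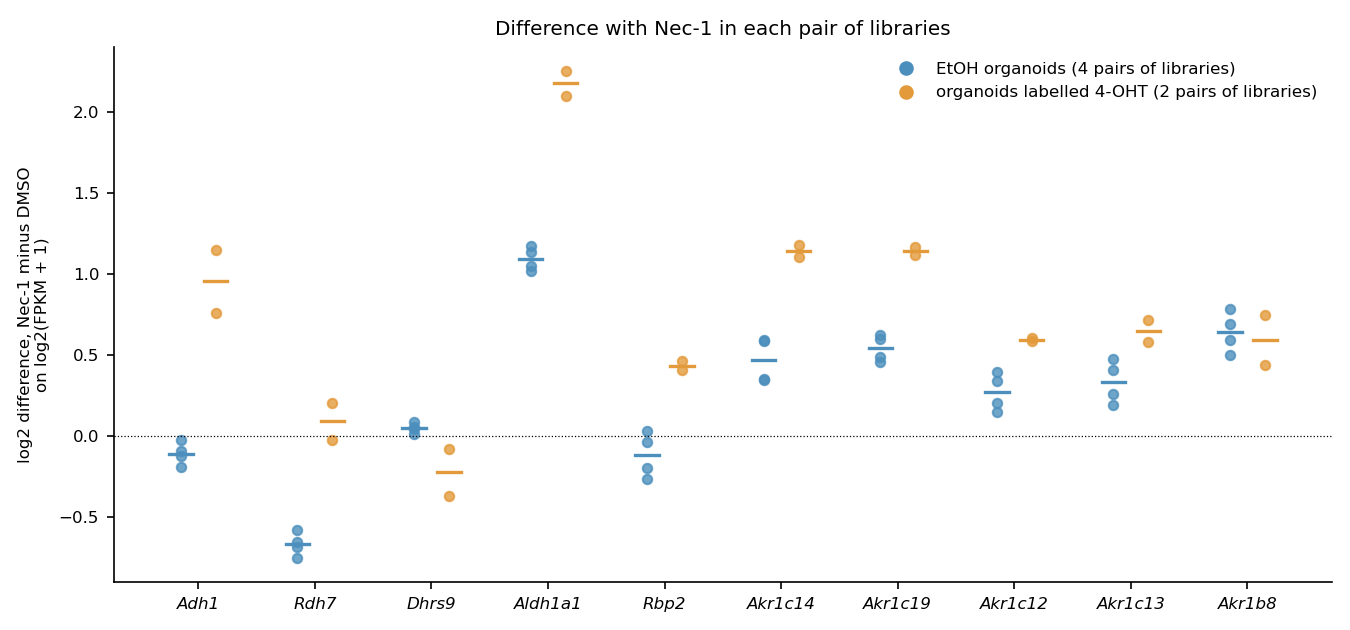
Log2 difference on log2(FPKM + 1), Nec-1 minus DMSO (y axis), of the 10 genes (x axis) for each pair of libraries, with 4 pairs in EtOH organoids and 2 in organoids labelled 4-OHT; bars are means, and pairs share libraries, so points are not independent. Aldh1a1 lies highest in both arms at means of 1.10 and 2.18, the 2 arms of Akr1b8 overlap, and Adh1 lies below 0 in one arm and above 0 in the other.

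Differences between the arms were not tested, since the organoids labelled 4-OHT have 1 Nec-1 library. As values side by side, the mean log2 difference with Nec-1 was 1.10 in EtOH organoids and 2.18 in those labelled 4-OHT for Aldh1a1. It was 0.47 and 1.14 for Akr1c14 and 0.54 and 1.14 for Akr1c19. For Akr1b8 the values were 0.64 and 0.59, with overlapping pairs of libraries.

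The fourth comparison, 4-OHT Nec-1 against EtOH Nec-1, asks what differs with the 4-OHT label when Nec-1 is present in both groups, again with 1 library on one side. Of the 9 measured genes, 4 were at least 1 log2 unit below both EtOH Nec-1 libraries and none was above, against 1.94% of 11746 genes counted as lower (228 genes) and 4.24% as higher (498 genes), or 317 and 345 after centring and 379 and 753 with a pseudocount of 0.1. The 4 were Akr1c14 at a mean difference of -2.88, Akr1c19 at -1.34, Aldh1a1 at -1.26 and Rdh7 at -1.22. This comparison uses the same Nec-1 libraries as the contrasts of the selection, so the count is a description. Adh1 and Akr1c12 differed by -0.84 and -0.81, Rbp2 by -0.33, Akr1c13 by -0.07 and Akr1b8 by 0.26.

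In the lists, 5 of 53 genes were counted as lower, Bco2 (-2.42), Dhrs3 (-1.45), Aldh1a7 (-1.37), Hsd17b13 (-1.24) and Akr1b7 (-1.15), and 2 as higher, Dhrs13 (1.16) and Aldh3b1 (1.06). These shares were 9.43% lower and 3.77% higher, against 1.94% and 4.24% of all genes measured. Fragments of Aldh1a7 may be shared with Aldh1a1, a gene of the selection. The median of the list genes was -0.25, against 0.07 over all genes, and -0.38 against -0.07 after centring. Of the cell type markers, Olfm4 (-2.04), Cps1 (-1.86) and Sis (-1.26) were counted as lower, and Clca1 (1.79), Ang4 (1.73), Cd68 (1.47), Mmp7 (1.34) and Anpep (1.13) as higher. Bco2 was at 29.6 and 29.4 FPKM in EtOH Nec-1 and at 4.72 in the library labelled 4-OHT Nec-1, close to the 3.62 and 4.63 of the libraries labelled 4-OHT DMSO. Dhrs3 was at 19.0 and 18.1 FPKM in EtOH Nec-1 and at 6.13 in the library labelled 4-OHT Nec-1. Bco2 and Dhrs3, like Rdh7, thus differed less among the libraries labelled 4-OHT than Aldh1a1 and Aldh1a7 did.

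Likeness of profile was measured as the root mean square distance between log2(FPKM + 1) values over the 7 libraries, each gene centred on its own mean. The genes nearest to Akr1c14 were Fbp1 (0.376), Pbld1 (0.390), Ugt2b5 (0.402), Oat (0.454) and Sult1b1 (0.461). Fbp1, an enzyme of gluconeogenesis, was at 101 and 99.1 FPKM in EtOH DMSO, 80.5 and 81.9 under EtOH Nec-1, 4.37 and 6.13 in the libraries labelled 4-OHT DMSO and 8.82 in the library labelled 4-OHT Nec-1. Fbp1 and Akr1c14 were thus both lowest in the libraries labelled 4-OHT DMSO, but Fbp1 was lower and Akr1c14 higher in EtOH Nec-1 than in EtOH DMSO.

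The genes nearest to Aldh1a1 were Ces1f (0.123), Ugt2a3 (0.161), Aldh1a7 (0.219), Slc5a4b (0.236) and Ces1g (0.302). Ces1f, a carboxylesterase, was at 189 and 179 FPKM in EtOH DMSO, 327 and 330 under EtOH Nec-1, 27.1 and 36.2 in the libraries labelled 4-OHT DMSO and 146 in the library labelled 4-OHT Nec-1. Like Aldh1a1 it had its highest values in EtOH Nec-1, and its value in the library labelled 4-OHT Nec-1 was near but below the EtOH DMSO values. Among the selected genes the one nearest to Aldh1a1 was Akr1c19, at rank 14 (0.417), and Akr1c14 was at rank 92 (0.739). From Akr1c14, Aldh1a1 was at rank 29 and Akr1c19 at rank 36.

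**Figure D5:**
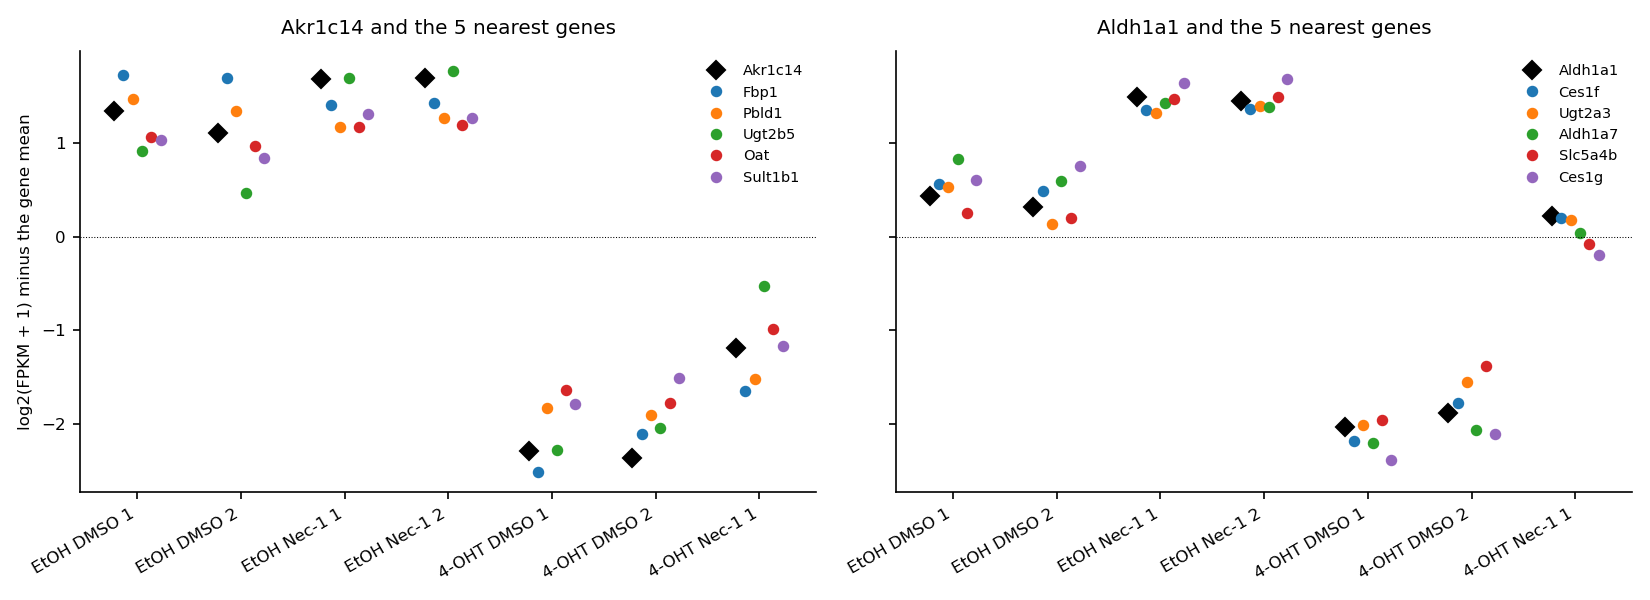
Log2(FPKM + 1) minus the mean of the gene (y axis) in each library (x axis) for Akr1c14, left, and Aldh1a1, right, as diamonds, each with its 5 nearest genes as circles. Around Aldh1a1 the points of each library lie close together, with distances of 0.123 to 0.302, and around Akr1c14 they spread more, with distances of 0.376 to 0.461.

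Short letter strings known from response elements were searched on both strands in the 300 bases from 250 before to 50 after each start of the RefSeq table, where the 10 genes had 12 starts. GCGTG, the core of the aryl hydrocarbon response element, was in the windows of 3 of the 12, Akr1b8, Rbp2 and Akr1c14, against 32.4% of all 32851 promoters. TGACNNNGC, of the antioxidant response element, was in 1 (Akr1c19), against 12.4%. TATAAA, the TATA box, was in 3 (Akr1b8, Rbp2 and Dhrs9), against 13.6%, and AGGTCA, a site bound by nuclear receptors, in 3 (Rbp2, Rdh7 and Dhrs9), against 16.3%. The windows of Adh1, Aldh1a1, Akr1c12 and Akr1c13 held none of the 4 strings. On one strand TGACNNNGC and the reverse complement of AGGTCA begin with the same letters, and a match or its lack says only which letters are in the window.

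The 250 bases before the start are shown for Akr1b8, the measured gene without a lower level under the label 4-OHT DMSO, and for Rbp2, whose window held 3 of the 4 strings. Capitals mark the letters found, written as they read on the strand of the gene, so a match on the other strand appears as its reverse complement. Akr1b8 lies at chr6:34353896-34354145 on the plus strand, with GCGTG from 26 to 22 bases before the start and TATAAA, on the other strand, from 159 to 154 bases before it. Rbp2 lies at chr9:98490287-98490536 on the plus strand, with GCGTG and AGGTCA on the other strand from 154 to 150 and from 58 to 53 bases before the start, and TATAAA on the other strand from 38 to 33 and on the same strand from 15 to 10 bases before it.
Akr1b8: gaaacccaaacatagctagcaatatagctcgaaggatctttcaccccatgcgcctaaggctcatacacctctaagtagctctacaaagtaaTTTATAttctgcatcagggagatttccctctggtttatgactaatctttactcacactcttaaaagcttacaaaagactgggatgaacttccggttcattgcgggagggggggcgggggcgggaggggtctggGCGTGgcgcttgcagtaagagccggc
Rbp2: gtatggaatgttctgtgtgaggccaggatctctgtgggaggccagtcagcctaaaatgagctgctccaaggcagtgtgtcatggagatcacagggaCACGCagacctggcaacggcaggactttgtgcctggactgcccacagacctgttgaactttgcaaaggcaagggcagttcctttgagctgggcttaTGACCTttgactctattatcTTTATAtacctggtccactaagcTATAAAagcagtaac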

How the data were processed

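Per the labels, 7 bulk RNA-seq libraries of mouse organoids were used. The authors deposited FPKM values by gene, and the submitters' processing notes name HISAT2 2.1.0, StringTie 1.3.3b and the build mm10. One file repeats the columns of 2 other libraries, which were used once. Ensembl IDs were given symbols for 54723 of 54838 genes.

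FPKM values are not counts, so limma 3.58.1 (R 4.3.3; empirical Bayes with trend, Benjamini-Hochberg threshold 0.05) was fitted to log2(FPKM + 1) of the 12702 genes that reached 1 FPKM in 2 or more libraries, over all 7 libraries with 4 group means and 3 residual degrees of freedom, and was tested on simulated data. Comparisons with 1 library have no test.

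Members and lists were chosen with earlier results of these data known. Named genes were all 10 members, Mettl3, in each list the most abundant gene and up to 3 called genes with the largest change in each direction, the 5 nearest profiles, and in each marker list the most abundant gene and those at 0. Other names were chosen after their values were seen. Alternatives were centring, pseudocount 0.1, other filters, no trend, 4 libraries only, a replicate block and leaving out each library. Python 3.11.15, numpy 2.4.6, pandas 2.3.3, matplotlib 3.10.9 and Biopython 1.88 did the rest; protein identity was not run.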

Additional observations from a re-analysis of the deposited data

Results flagged for a closer look

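Among 53 genes, which are the selected genes, Mettl3 and those that the naming rule took from the lists and markers, 11 had Nec-1 differences in opposite directions in every pair of libraries of the EtOH and of the 4-OHT arm. The share of all tested genes with such differences was not counted, so nothing is read from the 11. The difference between the arms was not tested, and the arm labelled 4-OHT has 1 Nec-1 library. All values are log2 differences on log2(FPKM + 1), Nec-1 minus DMSO.

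Of the selected genes, Adh1 was at -0.11 in EtOH organoids and 0.96 in those labelled 4-OHT. Dhrs9, below 1 FPKM throughout, was at 0.050 and -0.22.

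Of the genes that handle retinol, retinal and other aldehydes, Adh4 was at -0.61 in EtOH organoids and 0.41 in those labelled 4-OHT. Dhrs3 was at -0.58 and 0.31, Lrat at -0.14 and 0.12, Akr7a5 at -0.15 and 0.25, and Rdh10 at 0.19 and -0.11.

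The receptors Rarg and Rxra were at -0.064 and -0.21 in EtOH organoids and at 0.12 and 0.17 in those labelled 4-OHT. The enterocyte marker Fabp1 was at -0.36 and 0.85, and the Paneth cell marker Defa24 at 0.18 and -0.50.

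Of genes named above outside these 53, Mmp7 (0.33 and -0.68), Ang4 (0.40 and -0.07), Clca1 (0.25 and -0.10), Scarb1 (-0.13 and 0.11), Fbp1 (-0.30 and 0.67) and Pbld1 (-0.18 and 0.34) also had opposite directions in every pair. After centring Mmp7 and Fbp1 still did. Among list genes not named above, Rara (-0.27 and 0.14), Aldh18a1 (-0.22 and 0.25) and Aldh5a1 (-0.25 and 0.031) had opposite directions in every pair with and without centring.

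After each library was centred on its median, 4 of the 11 (Adh4, Dhrs3, Fabp1 and Defa24) still had opposite directions in every pair and 7 did not. Another 2 genes had opposite directions in every pair only after centring: Rdh7, at -0.57 in EtOH organoids and 0.21 in those labelled 4-OHT, and Isx, at -0.64 and 0.039.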

How the results depend on the processing

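For 4-OHT DMSO against EtOH DMSO, centring called 2213 genes higher and 3187 lower, in place of 3117 and 2120; the cause was not tested. Leaving out 1 library gave 2117 to 2747 genes higher and 1423 to 1917 lower, and 10 to 12 list genes higher and 22 to 30 lower. An arm left with 1 library is assumed to vary like the others.

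For EtOH Nec-1 against EtOH DMSO the 22 genes higher and 6 lower became 6 and 2 without a filter on low values, and 59 and 20 with only the 4 libraries of the comparison, where 1 list gene (Akr1b7) was called higher. Leaving out 1 library gave 5 to 57 genes higher, 2 to 18 lower and 0 to 1 list gene higher. The counts higher and lower were 57 and 18 without either 4-OHT DMSO library, 11 and 2 without EtOH DMSO replicate 1, 12 and 2 without EtOH DMSO replicate 2, 7 and 4 without EtOH Nec-1 replicate 1, and 5 and 4 without EtOH Nec-1 replicate 2.

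For 4-OHT Nec-1 against 4-OHT DMSO, genes lower became 255 with a pseudocount of 0.1 and 97 with a mean FPKM of 5 or more, in place of 146. With 1 library of 4-OHT DMSO left out, so that only 1 has to be exceeded, 181 to 247 were higher and 244 to 543 lower (247 and 543 without replicate 1, 181 and 244 without replicate 2). For 4-OHT Nec-1 against EtOH Nec-1, the 498 higher and 228 lower became 753 and 379 with a pseudocount of 0.1, and 296 and 137 with a mean of at least 5 FPKM, where fewer genes are measured.

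Replicate numbers did not pair the libraries: the deviations of same-numbered libraries had correlations across genes of -0.040, 0.0065 and -0.012. With the number as a replicate block, 2788 genes were called higher and 1909 lower in 4-OHT DMSO against EtOH DMSO, with 11 and 27 list genes, and 15 and 4 genes in EtOH Nec-1 against EtOH DMSO, with 0 list genes in either direction.

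Of the values of selected genes under alternatives, 259 moved by less than the spread between libraries or not at all, 64 moved by more, and 2 changed sign: Rbp2 in EtOH Nec-1 against EtOH DMSO, from -0.11 to 0.00026 without EtOH Nec-1 replicate 2, and Rdh7 as given above. A change of only the trend, the filter, the replicate block or libraries outside the compared groups cannot move a fold change. Values under such settings are among the 259, so that count is no measure of stability. For the 57 tested list genes and Mettl3 in the 2 comparisons with a test, 1432 outcomes did not change, 45 calls were lost and 15 gained. Most losses were for Dhrs7b (8 settings), Mettl3 (7) and Rdh5 (7). In EtOH Nec-1 against EtOH DMSO none of these genes was called before a change of setting, so no call could be lost there. All 45 losses thus fell in the other comparison with a test. The 1432 include genes that stayed uncalled, so that count is no measure of stability either. In the 2 comparisons with a test, no called value of a tested list gene or Mettl3 changed sign in the settings that measured it. Total fragment numbers are unknown, so no counting error can be given for low values.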

Other observations

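Cbr1, a carbonyl reductase of the short-chain list, differed between libraries of 1 group: it was at 43.3 FPKM in EtOH DMSO replicate 1 and 119 in EtOH DMSO replicate 2. It was at 140 and 151 FPKM in EtOH Nec-1, 87.2 and 112 in the libraries labelled 4-OHT DMSO and 159 in the library labelled 4-OHT Nec-1. Its log2 fold change in 4-OHT DMSO against EtOH DMSO was 0.45 (SE 0.45; limma adjusted p = 0.465), and the direction depends on which EtOH DMSO library it is compared with: without EtOH DMSO replicate 1 the value was -0.27, and without EtOH DMSO replicate 2 it was 1.17 and called higher. The gene was singled out after its values were seen. Its neighbour in function, Cbr3, did not have that gap, at 354 and 294 FPKM.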
